A study of Sus scrofa with 16 samples.

Results

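Small RNA of the endometrium of sows fed the highest oestradiol (E2) dose, 1000 µg per kg body weight per day, was compared with that of sows fed the ethanol carrier alone (0 µg/kg/day). The members were 8 of the 16 libraries of the series, chosen by their titles: control sows 1 to 4 and high-dose sows 12 to 15, 1 library per sow. All 8 sows were pregnant adults, dosed orally from insemination and examined on day 10 of pregnancy. The uterus had been flushed with buffer before the tissue was frozen. The other 8 libraries came from 7 sows at 0.05 µg/kg/day (ADI) and 10 µg/kg/day (NOEL), and they entered the fits only to share the estimate of spread. The labels call the tissue endometrium without a separation of cell types, so fewer cells of a type and less RNA per cell cannot be told apart. The libraries held miRNAs of the epithelial miR-200 group at 25030 to 40320 CPM in sum (reads scaled to 1000000 per library) and miRNAs of stroma and smooth muscle at 118500 to 247700 CPM.

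A microRNA (miRNA) is a single-stranded RNA cut from 1 arm of a hairpin, and it lowers the output of messenger RNAs that pair with its seed, bases 2 to 8. Longer small RNA of a tissue comes largely from transfer RNA, ribosomal RNA and Y RNA, which are cut at preferred places. Oestradiol acts through nuclear receptors of the uterine epithelium and stroma. In the pig the conceptuses themselves release oestrogen at the time at which the uterus recognises the pregnancy.

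No miRNA, seed family, arm ratio, end variant or fragment differed between the 8 sows after adjustment for the number tested, in the fits over the 15 sows. In single sows the values moved in ways that are set out below. As CPM scaled with all read groups, the ciliated-cell miRNAs miR-449a-5p and miR-449b-5p were higher in each high-dose sow than in any control sow. Scaled to the named miRNA reads alone, miR-449a-5p overlapped between the dose groups. The far more abundant miR-34c-5p of the same seed overlapped between the groups, and both arms of miR-34c were estimated lower. The red-cell miRNA miR-451-5p was high in 3 of the 4 high-dose sows and low in the last. The 5′ piece of tRNA-Gly was lower in each high-dose sow than in any control sow as a share of all reads. These differences did not pass adjustment.

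The sequences of the miRNAs on which the description turns are shown as the most common read of each, with the seed in capitals and T for U. They were read from the libraries and named from the seed and a few further bases as background knowledge, without a reference table. The first set shares the seed GGCAGTG and differs in the 3′ part.
miR-449b-5p: aGGCAGTGtattgttagctggc
miR-449a-5p: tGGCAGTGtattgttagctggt
miR-34c-5p: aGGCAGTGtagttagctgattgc
The next set shares the seed GAGGTAG of the let-7 family.
let-7a/c: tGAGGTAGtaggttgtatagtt
let-7i: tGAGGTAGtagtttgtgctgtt
let-7d: aGAGGTAGtaggttgcatagtt
The pair miR-146a-5p and miR-146b-5p shares the seed GAGAACT.
miR-146a-5p: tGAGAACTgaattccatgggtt
miR-146b-5p: tGAGAACTgaattccataggctg
The remaining miRNAs described at length have seeds of their own, among them the 2 most abundant and those of red cells.
miR-21-5p: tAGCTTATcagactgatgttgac
miR-143-3p: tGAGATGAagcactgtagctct
miR-451-5p: aAACCGTTaccattactgagt
miR-486-5p: tCCTGTACtgagctgccccgagt
miR-128-3p: tCACAGTGaaccggtctcttt
miR-31-3p: tGCTATGCcaacatattgccatc

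The depth of the libraries ranged from 7363900 to 11084974 reads in the control sows and from 4497096 to 14085579 in the high-dose sows. Reads of 22 nt were the most common in the plot of read length, as is usual for miRNAs. The libraries fell into length classes. Class A had less than 8% of its reads at 17 to 19 nt, class B had more than that but less than 5% at 40 nt and above, and class C had more in both ranges. Control sows 1 and 2 and high-dose sow 12 were of class A, and control sows 3 and 4 and high-dose sow 15 of class B. High-dose sows 13 and 14 were of class C, in which there was no control library. Dose and length profile therefore could not be told apart for those sows, and comparisons within a class rested on 1 high-dose sow. Reads of 18 to 26 nt made up 51.7%, 54.5%, 67.8% and 62.2% of reads in control sows 1 to 4 and 55.5%, 60.9%, 58.7% and 74.9% in high-dose sows 12 to 15. The groups overlapped, and the difference of 3.44 percentage points had an exact two-sided permutation p of 0.543 (adjusted 0.776 over 10 composition measures, smallest possible p 0.0286, n = 4 per group).

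**Figure D1:**
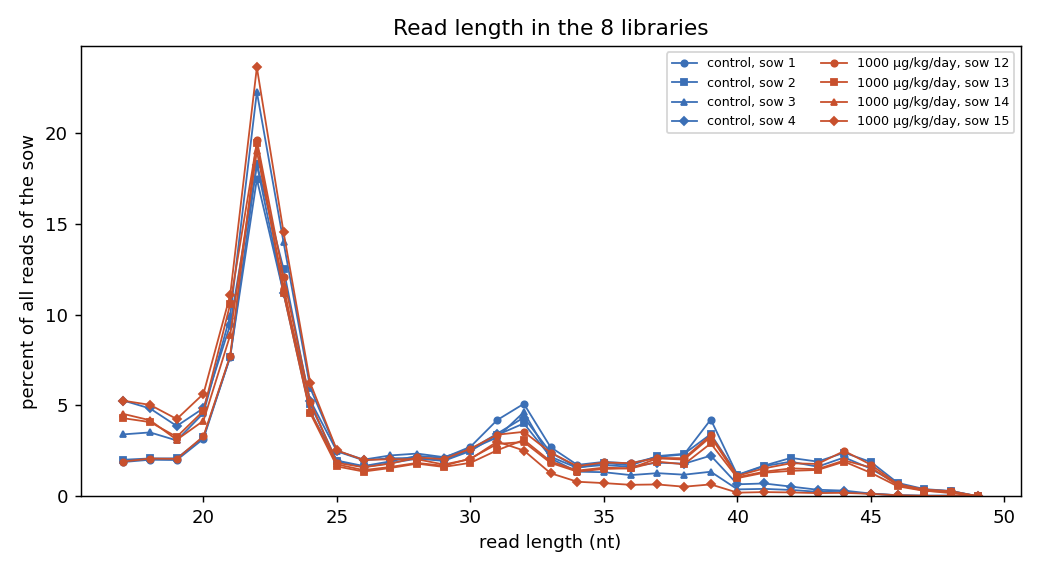
Percent of all reads of a sow (vertical axis) at each read length in nt (horizontal axis), 1 line per library, blue for control and red for 1000 µg/kg/day. The libraries share a peak at 22 nt, and high-dose sow 15 has few reads of 40 nt or more (1.22% of its reads).

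Reads of 18 to 26 nt were grouped by their first 18 bases, and 11108 groups were tested with edgeR's quasi-likelihood test. At an adjusted p under 0.05, 0 groups were called (0%), 502 had an unadjusted p under 0.05 (4.52%), and the smallest adjusted p was 1. DESeq2 also called 0 groups. Of 227 groups that could be named as mature miRNAs, all but 9 passed the filter on low counts, and 13 of those tested had an unadjusted p under 0.05 (5.96%, beside 4.52% of all groups). Of those 13, 11 were estimated higher and 2 lower at 1000 µg/kg/day. Over the named miRNAs tested the median log2 difference was 0.09 and the central quartiles lay between -0.08 and 0.24, beside a median of -0.02 over all groups. The estimate was above 0 for 63.3% of them with trimmed-mean (TMM) scaling, beside 47.7% of all groups, and for 77.4% when scaled by all reads. With length class in the fit it was 53.2%, fitted on the named miRNAs alone 53.5%, with their start variants merged 47.7%, and in class B libraries 50.0%. It was above 0 for 48.6% without high-dose sow 12 and for 48.4% without control sow 4, so the share rested on these sows.

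The data bounded the size of a change for most named miRNAs. The 95% interval of the log2 difference lay within -1 and 1, for 166 of those tested. Among the 122 miRNAs with a mean of 100 CPM or more it did so for 108. The spread between sows was about the same in both groups: the median SD of log2(CPM + 1) was 0.38 in control sows and 0.39 in high-dose sows. The SD was larger at the high dose for 110 miRNAs. All 4 high-dose sows lay above all 4 control sows for 6 named miRNAs (2.75%, beside 1.08% of all groups), and below them for 0 (beside 1.37% of all groups). This separation depended on the scaling. Among the 168 seed families, scaled to the named miRNA reads alone, 1 lay above (miR-543-3p) and 1 below (miR-31-3p).

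The most abundant miRNA of the tissue was miR-21-5p, which is widely expressed and linked to epithelial growth. It stood at 125100, 183900, 124400 and 71260 CPM in control sows 1 to 4 and at 128200, 89700, 104100 and 85860 CPM in high-dose sows 12 to 15. The high-dose values all lay inside the control range. The means were 126100 ± 45990 and 102000 ± 19180 CPM (SD, n = 4 each), and the log2 difference was -0.31 (95% interval -0.91 to 0.30, edgeR adjusted p = 1). As CPM of the named miRNA reads alone, miR-21-5p had 154300 to 266000 CPM in control sows and 135900 to 169100 CPM in high-dose sows. High-dose sow 13 then lay below every control sow. The log2 difference was -0.38 (95% interval -0.75 to -0.01, edgeR unadjusted p = 0.0464, adjusted p = 0.666).

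The second, miR-143-3p, is a miRNA of smooth muscle and fibroblasts. It stood at 74070, 75670, 47960 and 38660 CPM in the control sows and at 45680, 135600, 58690 and 35250 CPM in the high-dose sows. Sow 13 had the highest value of the 8, while the other high-dose sows lay near or below the control mean of 59090 CPM. The log2 difference was 0.22 (95% interval -0.57 to 1.01).

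The other 8 of the 10 most abundant were miR-10b-5p, let-7i, let-7a/c, miR-148a-3p, miR-27a/b-3p, miR-10a-5p, miR-99a-5p and miR-26a-5p. Their estimates ran from -0.11 for miR-10b-5p to 0.35 for let-7a/c on the log2 scale. For let-7a/c, whose highest value was 34470 CPM in sow 12, control sows had 18170 to 27080 CPM and high-dose sows 20940 to 34470 CPM. For miR-10b-5p the ranges were 19280 to 40160 CPM and 25850 to 32360 CPM. Over the 10 most abundant miRNAs, the 95% intervals reached from -0.91 at the lowest to 1.01 at the highest.

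**Figure D2:**
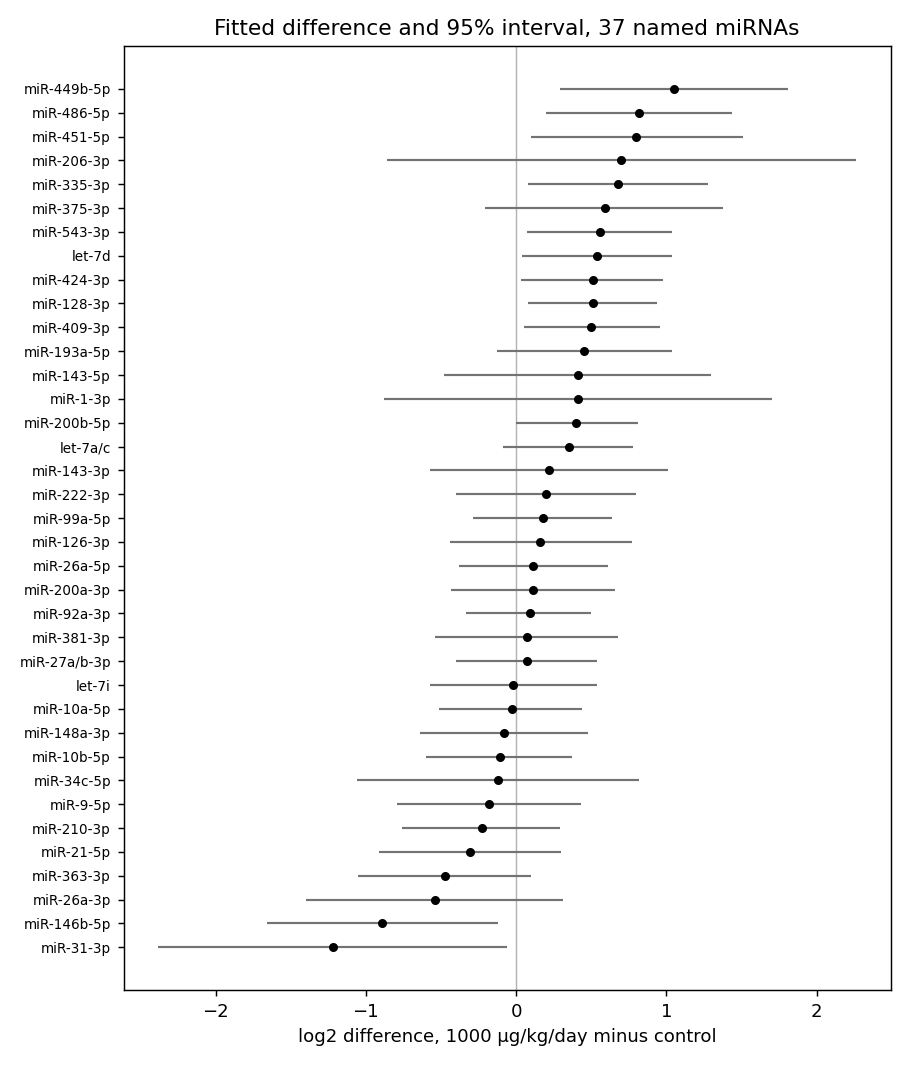
Fitted log2 difference (1000 µg/kg/day minus control, points) with its 95% interval (bars) from the edgeR fit over 15 sows, for the 37 miRNAs named by abundance, by p or as list members. The interval of most crosses 0. Before adjustment those of miR-449b-5p, miR-486-5p, miR-451-5p, miR-128-3p, miR-543-3p, miR-335-3p, miR-409-3p, let-7d and miR-424-3p lie above it. Those of miR-146b-5p and miR-31-3p lie below it.

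The smallest p of a named miRNA belonged to miR-449b-5p, which with miR-449a and miR-34c is known from ciliated cells, whose differentiation it supports. It had 15.9, 5.61, 18.4 and 12.9 CPM in control sows 1 to 4 and 38.1, 23.99, 23.67 and 23.7 CPM in high-dose sows 12 to 15. The groups did not overlap. The means were 13.2 ± 5.54 and 27.4 ± 7.16 CPM (SD, n = 4 each), a log2 difference of 1.05 (95% interval 0.29 to 1.81, unadjusted p = 0.00935, edgeR adjusted p = 1). The class A libraries alone gave 1.83 and the class B libraries 0.64, with 1 high-dose sow in each.

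Its paralogue miR-449a-5p, named because its groups also did not overlap, was more abundant. It had 168, 62.5, 218.9 and 174 CPM in the control sows and 349.5, 254.4, 232.5 and 250.1 CPM in the high-dose sows, a log2 difference of 0.80 (95% interval 0.00 to 1.60). As CPM of the named miRNA reads alone, miR-449a-5p overlapped between the groups. The far more abundant miR-34c-5p of the same seed overlapped between the groups. It had 12630, 3622, 15360 and 10320 CPM in the control sows and 9066, 13750, 9795 and 5978 CPM in the high-dose sows (log2 difference -0.12, 95% interval -1.06 to 0.82). The last member tested, miR-34c-3p, was estimated at -0.43. Of the 4 tested ciliated-cell miRNAs, 2 were thus estimated higher and 2 lower. Their median was 0.34, beside 0.09 over the named miRNAs and -0.02 over all groups. Control sow 2 was the lowest of the 8 for miR-449a, miR-449b and both arms of miR-34c, and without it the median was 0.07. The median was 0.59 without control sow 3 and -0.18 in class B libraries.

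The red-cell miRNAs were uneven between the high-dose sows. miR-451-5p, the main miRNA of red blood cells, stood at 1246, 1593, 1420 and 1273 CPM in the control sows and at 2647, 4027, 2202 and 784.2 CPM in the high-dose sows. The first 3 high-dose sows lay above every control sow, and sow 15 lay below every control sow. The log2 difference was 0.80 (95% interval 0.10 to 1.51, unadjusted p = 0.0271, edgeR adjusted p = 1). The class A libraries gave 0.90 and the class B libraries -0.74. miR-486-5p, also of red cells, had 32.7, 28.6, 79.6 and 49.6 CPM in the control sows and 66.6, 120.8, 95.6 and 54.99 CPM in the high-dose sows (log2 0.82, 95% interval 0.20 to 1.44). Scaled to the named miRNA reads alone, both miR-451-5p and miR-486-5p were at 0.63, and both 95% intervals held 0 (-0.06 to 1.31 and -0.18 to 1.45). Both arms of miR-144, which shares a transcript with miR-451, were estimated higher too, at 0.67 for the 5p arm and 0.41 for the 3p arm. All 4 tested red-cell miRNAs had an estimate above 0 (median 0.74), 2 with an unadjusted p under 0.05 and 0 called. The median was 1.00 without sow 15, 0.38 without sow 13 and -0.83 within class B. Their summed level was 1368 to 1681 CPM in control sows and 863.1 to 4367 CPM in high-dose sows. The part of red-cell RNA in the other results was not tested.

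Of the leukocyte miRNAs, miR-146b-5p, a feedback regulator of inflammatory signalling, had the smallest p and the highest level. It stood at 249.8, 393.7, 319.5 and 763.1 CPM in the control sows and at 184.8, 286.6, 308 and 155.6 CPM in the high-dose sows. Control sow 4 was the highest, and the groups overlapped. The log2 difference was -0.89 (95% interval -1.66 to -0.12, unadjusted p = 0.0262, edgeR adjusted p = 1). The class A libraries gave -0.80 and the class B libraries -1.76. Its paralogue miR-146a-5p, with the same seed, had an estimate of 0.01 (95% interval -0.96 to 0.98). Of the 7 leukocyte miRNAs tested, 2 were estimated higher and 5 lower, with a median of -0.04. The split was not stable: 5 were higher without high-dose sow 13, 0 without high-dose sow 12, 6 in class A libraries and 4 when scaled by all reads.

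miR-128-3p, best known from brain, was abundant in this endometrium and had non-overlapping groups. It stood at 1515, 1174, 1511 and 1636 CPM in the control sows and at 2000, 2240, 2269 and 1784 CPM in the high-dose sows. The log2 difference was 0.51 (95% interval 0.08 to 0.94, unadjusted p = 0.0229, edgeR adjusted p = 1), and the class A and class B libraries gave 0.57 and 0.22. The ADI and NOEL sows had 1414 to 2321 CPM and overlapped both groups. As CPM of the named miRNA reads alone, miR-128-3p overlapped between the groups. It then had 1699 to 3541 CPM in control sows and 2580 to 3513 CPM in high-dose sows (log2 0.36).

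**Figure D3:**
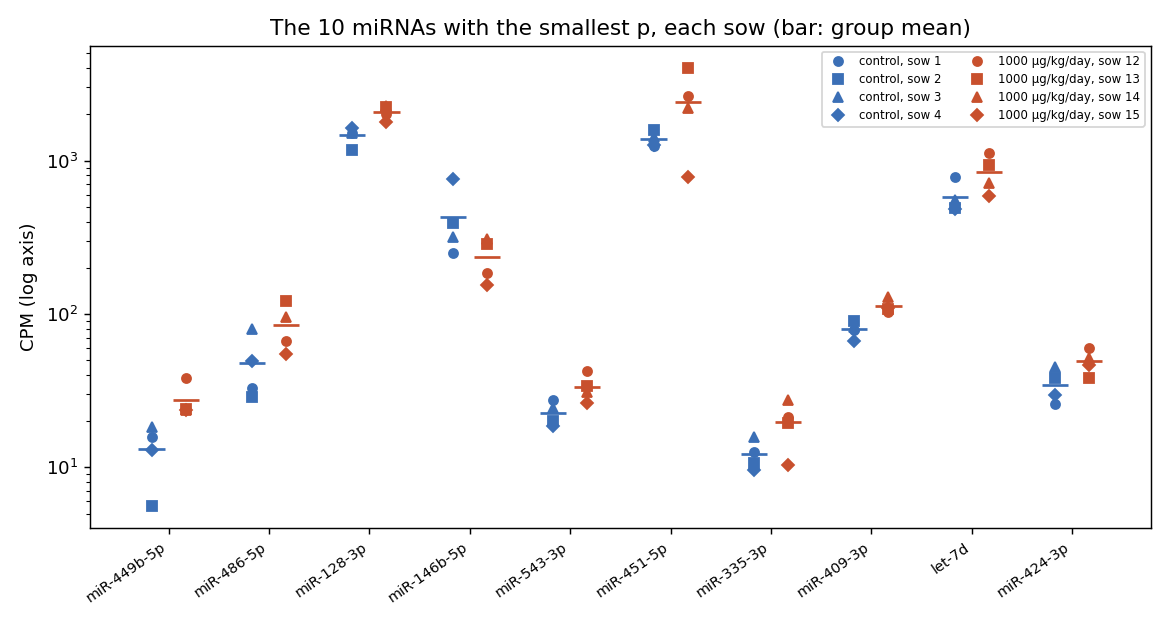
CPM on a log axis for the 10 named miRNAs with the smallest p, each sow as a symbol and the group mean as a bar, blue for control and red for 1000 µg/kg/day. High-dose sow 15 stands apart in miR-451-5p at 784.2 CPM, and the groups do not overlap for miR-449b-5p, miR-128-3p and miR-409-3p.

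The miRNAs of the DLK1-DIO3 imprinted cluster, a large group expressed from the maternal chromosome, were estimated higher in 22 of 26 tested, with a median of 0.29. The count was 24 of 26 when scaled by all reads, 22 of 26 with DESeq2, 18 of 26 within class A and 24 of 26 within class B. As shares these are 84.6%, 92.3%, 84.6%, 69.2% and 92.3%, beside 63.3%, 77.4%, 66.5%, 67.4% and 50.0% of all named miRNAs in the same settings, so the class A share was near that of the rest. They are cut from neighbouring hairpins and are not independent of each other. miR-409-3p had 78.8, 89.8, 82.8 and 66.7 CPM in the control sows and 103.6, 108, 129.3 and 109.8 CPM in the high-dose sows, without overlap (log2 0.50, 95% interval 0.05 to 0.96). As CPM of the named miRNA reads alone it overlapped, at 112.1 to 145.5 in control sows and 133.7 to 216.3 in high-dose sows. miR-543-3p had the smallest p of the cluster, with 18.7 to 27.5 CPM in control sows and 26.1 to 42.5 CPM in high-dose sows (log2 0.56, 95% interval 0.07 to 1.04). The most abundant member, miR-381-3p, was at 0.07 (95% interval -0.54 to 0.68). Of the 26, 3 had an unadjusted p under 0.05, beside 5.96% of all named miRNAs, and 0 were called.

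Of 7 members of the miR-200 group tested, which keep epithelial cells from taking on mesenchymal features, 5 were estimated higher (median 0.24). miR-200a-3p, the most abundant, stood at 10600 to 13690 CPM in control sows and 9074 to 18250 CPM in high-dose sows (log2 0.11, 95% interval -0.43 to 0.66). The passenger strand miR-200b-5p had 38.1 to 45.7 CPM in control sows and 49.6 to 67.1 CPM in high-dose sows (log2 0.40, unadjusted p = 0.0525), the 1 member of the list whose groups did not overlap. As CPM of the named miRNA reads alone, miR-200b-5p overlapped too. Among the 8 tested miRNAs of other epithelia, 4 were estimated higher and 4 lower (median 0.01). miR-375-3p, of secretory epithelium, had 709.6 to 2401 CPM and 989.1 to 3331 CPM (log2 0.59, 95% interval -0.21 to 1.38). The rare strand miR-31-3p had 18.9, 55.3, 22.2 and 10.9 CPM in the control sows and 14.8, 3.72, 14.9 and 11.6 CPM in the high-dose sows (log2 -1.22, 95% interval -2.38 to -0.06, unadjusted p = 0.0401, edgeR adjusted p = 1).

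The muscle miRNAs were led by 1 library. miR-1-3p, of striated muscle, had 191.4 to 797.1 CPM in control sows, and 458.4, 1377, 427.6 and 139.6 CPM in high-dose sows 12 to 15. Sow 13 also had the highest miR-206-3p (12 CPM) and the highest miR-143-3p. All 4 tested muscle miRNAs were estimated above 0 (median 0.45), and the median was -0.31 without sow 13 and -0.39 with length class in the fit. Of 18 stroma and smooth muscle miRNAs, 11 were estimated higher (median 0.06). With length class in the fit 5 of the 18 were (median -0.05), without control sow 2 all 18 (0.14), and without control sow 4 or high-dose sow 12 8 of 18. Of 6 endothelial miRNAs 4 were estimated higher (median 0.15; -0.02 without control sow 4), and miR-126-3p, the endothelial miRNA, was at 0.16 (95% interval -0.44 to 0.77).

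Of the miRNAs that other work has linked to oestrogen, 13 of 21 tested were estimated higher, the median was 0.07, and 0 had an unadjusted p under 0.05. Without control sow 4, 7 of 21 were estimated higher (median -0.02), and with length class in the fit 8 of 21 (median -0.08). In this scaling the smallest p was that of miR-193a-5p, with 48.1 to 86.4 CPM in control sows and 55.3 to 122 CPM in high-dose sows (log2 0.45, 95% interval -0.13 to 1.04). Fitted on the named miRNAs alone, 10 of 21 were estimated higher (median -0.01). Among the seed families, scaled to the named miRNA reads, miR-21-5p was at -0.38 and miR-21-3p at -0.50 (edgeR unadjusted p = 0.0464 and 0.0485, adjusted p = 0.666 for each). Of 21 miRNAs linked to implantation, 12 were estimated higher (median 0.06), and 0 had an edgeR unadjusted p under 0.05 when scaled with all groups. The number estimated higher was 7 without control sow 4, 7 without high-dose sow 12, 6 with length class in the fit and 4 in class B libraries. Fitted on the named miRNAs alone it was 10 (median -0.03). Scaled with all groups, miR-26a-3p, rare at 1.65 to 8.41 CPM, had the smallest p of this list (log2 -0.54). Among the seed families, miR-29c-5p of this list was at -0.49 (edgeR unadjusted p = 0.0413, adjusted p = 0.666), and both arms of miR-21 are also on it. Of 13 miRNAs of the miR-17-92 cluster and its paralogues, which drive proliferation, 4 were estimated higher and 9 lower, with a median of -0.11. The split turned without control sow 1, where 9 of 13 were higher (median 0.07), and 8 of 13 were higher without high-dose sow 15 and in class A libraries. miR-363-3p had the smallest p among them (log2 -0.47, 95% interval -1.05 to 0.10), and miR-92a-3p, the most abundant, was at 0.09. The hypoxia miRNA miR-210-3p stood at 1429 ± 292.9 CPM in control sows and 1216 ± 114.4 CPM in high-dose sows (SD, n = 4 each; log2 -0.23, 95% interval -0.76 to 0.29).

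Among the 12 let-7 members tested, which restrain proliferation, 8 were estimated higher (median 0.09). Without high-dose sow 12, 4 of 12 were (median -0.06), and scaled by all reads all 12 were. let-7d had 780, 494.4, 557.5 and 484.6 CPM in the control sows and 1125, 939.3, 717.7 and 585.8 CPM in the high-dose sows (log2 0.54, 95% interval 0.04 to 1.04). Its 3p arm, let-7d-3p, did not overlap between groups, at 39.3 to 59.2 CPM and 59.2 to 81.9 CPM (log2 0.41, 95% interval -0.03 to 0.85), though the nearest sows had 59.19 and 59.21 CPM. As CPM of the named miRNA reads alone let-7d-3p overlapped, at 56.82 to 106.3 in control sows and 82.06 to 124.1 in high-dose sows. Of the 5 brain and liver miRNAs tested, 3 were estimated higher (median 0.29; -0.01 with length class in the fit), and miR-9-5p was the most abundant (log2 -0.18, 95% interval -0.79 to 0.43). The other named miRNAs of small p were miR-335-3p, at 9.56 to 15.7 CPM in control sows and 10.4 to 27.3 CPM in high-dose sows, and miR-424-3p, at 25.9 to 44.8 CPM and 38.1 to 60.0 CPM. Their log2 differences were 0.68 and 0.51. In endothelium the smallest p was that of miR-222-3p (log2 0.20, 95% interval -0.40 to 0.80), and in stroma that of miR-143-5p (log2 0.41, 95% interval -0.48 to 1.30).

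Counts summed over miRNAs of 1 seed were tested because targets respond to the sum. Here CPM are shares of the named miRNA reads, so levels are higher than those above. Of 168 seed families 0 were called (0%), 11 had an unadjusted p under 0.05 (6.55%), and 24 had more than 1 member. The let-7 seed GAGGTAG, with 8 members, was at 155600 CPM in control sows and 157500 CPM in high-dose sows (log2 0.02), and the pair miR-26a and miR-26b was at 31510 and 31490 CPM. The smallest p was that of miR-7-5p, a family of 1 here and enriched in endocrine cells. It stood at 1618, 1545, 1222 and 2434 CPM in the control sows and at 1006, 1326, 1024 and 1218 CPM in the high-dose sows. Sow 13 lay inside the control range and the other high-dose sows below it (log2 -0.58, 95% interval -0.98 to -0.17, unadjusted p = 0.00809, edgeR adjusted p = 0.666). Scaled with all groups of 18 to 26 nt, the same miR-7-5p had a log2 difference of -0.45 (unadjusted p = 0.0844). Without control sow 4 the family stood at -0.30. The seed of miR-146a and miR-146b was at -0.83 (95% interval -1.58 to -0.08), and control sow 4 had 2134 CPM of it, beside 556.8 to 798 CPM in the other control sows. The others of the 5 smallest p were the single miRNAs miR-31-3p (-1.22), miR-543-3p (0.43) and miR-379-3p (0.41). The seed GGCAGTG of miR-34 and miR-449 was at -0.27, and miR-34c-5p was its most abundant member.

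Arm use compares the strands of 1 hairpin within a library, so it does not move with scaling. Both arms were named for 65 hairpins, whose reads paired with each other in a computed duplex over 13 to 20 base pairs, and 64 were tested. The 5p arm held over 90% of the reads in 29 and the 3p arm in 16. By limma on the log2 ratio of the arms, 0 were called (0%) and 2 had an unadjusted p under 0.05 (3.12%). The 95% interval lay within -1 and 1 for 49 of the 64. The dominant arm was the same in all 8 sows for all but miR-361 and miR-485, which were near balance, at 38.6% to 55.1% and 33.1% to 50.6% on the 5p arm.

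The smallest p was that of miR-193a, whose 5p arm carried 92.95%, 85.6%, 85.7% and 89.9% of both arms in the control sows and 93.1%, 92.5%, 96.9% and 93.2% in the high-dose sows. The groups overlapped only through control sow 1. The log2 ratio differed by 1.01 (95% interval 0.30 to 1.71, unadjusted p = 0.00796, limma adjusted p = 0.482). These shares rest on few reads of the 3p arm, 26 to 53 per control sow and 9 to 47 per high-dose sow. The 5p arm of miR-31 carried 96.6%, 93.1%, 97.3% and 96.1% in the control sows and 97.95%, 98.3%, 97.4% and 97.5% in the high-dose sows, without overlap (log2 ratio 0.87, 95% interval 0.19 to 1.55, limma adjusted p = 0.482). These shares rest on the low miR-31-3p counts described above, with 9 reads of that arm in sow 13. For miR-424 the 5p share was 66.0% to 80.9% in control sows and 55.1% to 73.99% in high-dose sows (log2 ratio -0.63). For miR-142, of blood cells, it was 61.7% to 74.6% and 64.9% to 79.9% (0.47), and for miR-16 97.5% to 98.8% and 96.7% to 98.1% (-0.54).

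**Figure D4:**
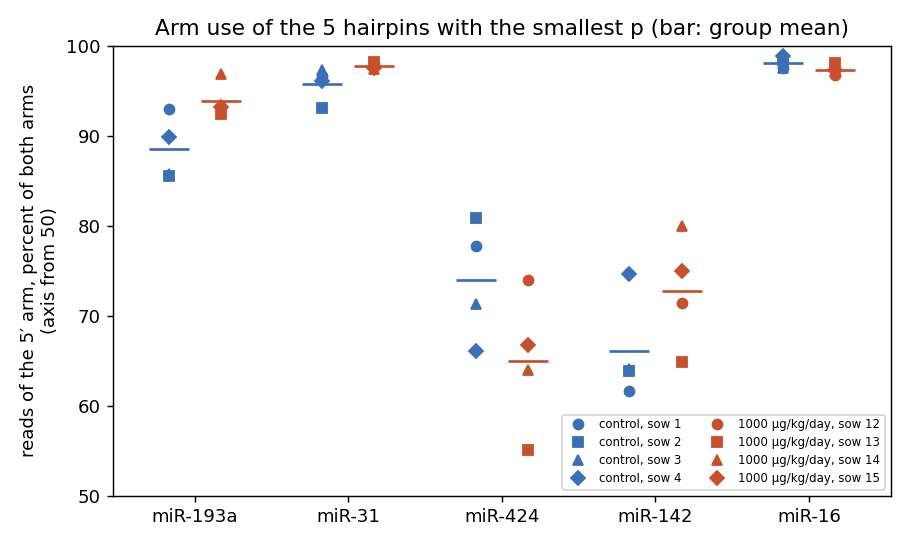
Reads of the 5′ arm as percent of both arms (axis from 50) for the 5 hairpins with the smallest p, each sow as a symbol and the group mean as a bar, blue for control and red for 1000 µg/kg/day. In miR-31 the high-dose sows lie at 97.4% to 98.3%, above the 4 control sows.

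The ends of the reads were compared for 123 miRNAs with at least 200 reads in every sow. A start or end variant changes the seed or the life of a miRNA, and A or T is often added to the 3′ end after cutting. Whether an added base was copied from the hairpin could not be told here. Over 4 measures and 492 tests, 0 were called by limma (0%) and 18 had an unadjusted p under 0.05 (3.66%). Reads that began up to 2 nt away from the usual start made up a median of 2.92% per miRNA, and at most 49.8%. For miR-29c-3p that share was 17.9%, 15.9%, 14.3% and 18.03% in the control sows and 22.9%, 18.9%, 18.7% and 20.6% in the high-dose sows. The groups did not overlap (log2 odds difference 0.36, 95% interval 0.05 to 0.67, limma adjusted p = 0.99). For miR-744-5p it was 2.99%, 2.34%, 2.65% and 2.21% against 3.43%, 3.69%, 2.83% and 3.003% (0.35, 95% interval 0.11 to 0.60, limma adjusted p = 0.927).

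Mean read length differed little in the miRNAs of smallest p. miR-484-5p averaged 22.64, 22.74, 22.63 and 22.62 nt in the control sows and 22.59, 22.56, 22.54 and 22.58 nt in the high-dose sows, without overlap (difference -0.09 nt, 95% interval -0.15 to -0.02, limma adjusted p = 0.662). miR-200b-3p averaged 22.73 to 22.83 nt and 22.66 to 22.71 nt (difference -0.09 nt). Reads with A after the usual end had a median share of 2.23% per miRNA. The smallest p of that measure was that of miR-23a/b-3p, at 0.00771% to 0.0443% in control sows and 0.0217% to 0.0604% in high-dose sows, and the next was miR-181d-5p, at 1.71% to 2.30% and 0.831% to 1.83%.

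Reads with T after the usual end had a median share of 4.49%, and the 2 smallest p belonged to miRNAs of the miR-17 seed AAAGTGC. For miR-20a-5p the share was 2.65%, 3.13%, 3.101% and 3.23% in the control sows and 2.39%, 2.21%, 2.81% and 2.38% in the high-dose sows. Sow 14 overlapped control sow 1, and the other high-dose sows lay below (log2 odds difference -0.32, 95% interval -0.56 to -0.07, limma adjusted p = 0.727). For miR-106b-5p it was 4.87% to 7.61% and 4.36% to 5.17% (-0.35). Pooled over the 123 miRNAs the T share was 6.12%, 6.14%, 6.03% and 5.65% in the control sows and 6.72%, 5.40%, 5.79% and 5.71% in the high-dose sows (exact permutation test, adjusted p = 0.921, n = 4 per group). The pooled A share was 3.38% to 4.12% and 3.11% to 4.13% (exact permutation test, adjusted p = 0.921, n = 4 per group).

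Reads of 28 to 36 nt, longer than miRNAs, made up 24.5%, 21.2%, 20.9% and 21.8% of the reads of control sows 1 to 4 and 21.5%, 17.3%, 17.7% and 14.8% of those of high-dose sows 12 to 15. Only sow 12 lay within the control range. The difference of -4.27 percentage points had an exact two-sided permutation p of 0.0857 (adjusted 0.776, n = 4 per group). Within class A, sow 12 had 21.5% beside 24.5% and 21.2%, and within class B, sow 15 had 14.8% beside 20.9% and 21.8%.

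The fragments that filled this size range are shown as the most common read of each of 4 abundant groups. From background knowledge they have the sequences of the 5′ piece of tRNA-Gly, the 3′ end of 5S rRNA with 2 start points and the 5′ end of 28S rRNA.
tRNA-Gly 5′ piece: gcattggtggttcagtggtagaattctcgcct
5S rRNA 3′ end: ccgcctgggaataccgggtgctgtaggctt
5S rRNA 3′ end, 2 bases earlier: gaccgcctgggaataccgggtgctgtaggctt
28S rRNA 5′ end: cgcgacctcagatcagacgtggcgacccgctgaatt

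Of 7287 fragment groups tested with edgeR, 0 were called (0%), 253 had an unadjusted p under 0.05 (3.47%), and DESeq2 called 0. In CPM of the fragment reads, the tRNA-Gly piece stood at 182400, 133600, 149100 and 130500 in the control sows and at 81020, 72620, 81440 and 145700 in the high-dose sows. The first 3 high-dose sows lay below the controls and sow 15 among them (log2 -0.65, 95% interval -1.43 to 0.14, edgeR adjusted p = 1). The 5S end of 30 nt stood at 42910 to 63010 CPM in control sows and 21550 to 67000 CPM in high-dose sows (log2 -0.27), and that of 32 nt at 36920 to 50510 CPM and 22970 to 42940 CPM (-0.40). The 28S end stood at 24390 to 36740 CPM and 32080 to 38140 CPM (0.18).

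The 5 fragments with the smallest p were rare and lower at the high dose. They were picked by p, so their lack of overlap between the groups is not a further result. The first carries the 5S end behind other first bases, and is shown because it had the smallest p of all fragments.
Rare fragment: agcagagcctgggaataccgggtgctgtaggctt
It had 29.4, 18.96, 19.99 and 26.3 CPM in the control sows and 8.48, 8.84, 10.1 and 10.3 CPM in the high-dose sows (log2 -1.32, 95% interval -1.95 to -0.70, unadjusted p = 0.000246, edgeR adjusted p = 1). The other 4 had estimates between log2 -2.08 and -1.10, and 2 of them also end in the 5S sequence. The NOEL and ADI sows had 11.8 to 24.9 CPM of the first, all above the high-dose sows.

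Added after the data were seen, reads of 28 to 36 nt were also summed into classes by short letters and given as RPM, reads scaled to 1000000 reads of all lengths. The tRNA-Gly piece, reads that start with GCATTGGT or GCATGGGTG, made up 12.7% of the 28 to 36 nt reads of the 8 sows. It stood at 40760, 26960, 29070 and 28570 RPM in the control sows and at 18090, 13260, 15640 and 20910 in the high-dose sows. Each high-dose sow lay below each control sow, with means of 31340 ± 6344 and 16980 ± 3281 (SD, n = 4 each), a ratio of 0.542. The exact two-sided permutation p was 0.0286, the smallest 4 against 4 sows can give, and 0.143 adjusted over 5 classes, so the difference did not pass. Within class A the values were 18090 beside 40760 and 26960 RPM, and within class B 20910 beside 29070 and 28570 RPM. This order had to hold in any class once each high-dose sow lay below each control sow. It is therefore no test of dose apart from length class. As a share of 28 to 36 nt reads the groups overlapped through sow 15, at 12.7% to 16.7% and 7.66% to 14.2% (exact permutation p = 0.114, n = 4 per group). The 7 ADI and NOEL sows ranged from 10190 to 75220 RPM, below and above both groups.

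The 5S end, reads with CTGTAGGC, stood at 40220, 41490, 36700 and 38610 RPM in the control sows and at 41410, 22740, 23600 and 24950 in the high-dose sows. Sow 12 lay with the controls and the other 3 well below them (exact permutation p = 0.114, n = 4 per group). Y RNA, which binds the Ro protein and starts with GGCTGGTCC here, stood at 6176, 5131, 5086 and 3992 RPM in the control sows and at 6679, 10620, 7262 and 3461 in the high-dose sows. Sows 12 to 14 lay above the controls and sow 15 below them (exact permutation p = 0.314, n = 4 per group). The 28S end, reads that start with CGCGACCTC, was at 6517 ± 1256 and 6522 ± 1484 RPM (SD, n = 4 each).

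**Figure D5:**
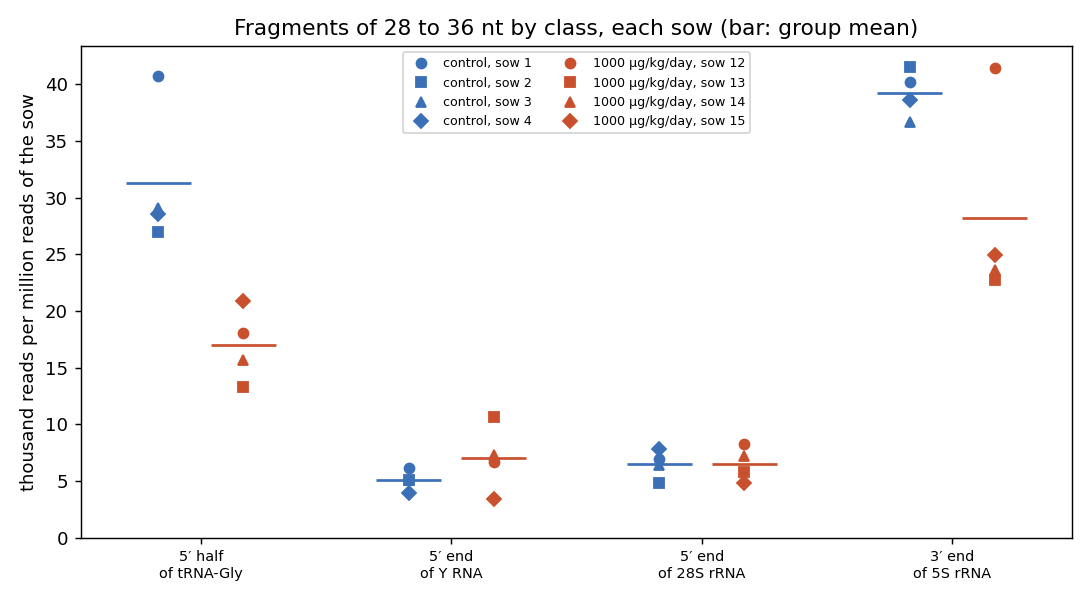
RPM of all reads of the sow, in units of 1000 (vertical axis), for 4 classes of 28 to 36 nt fragments, each sow as a symbol and the group mean as a bar, blue for control and red for 1000 µg/kg/day. For the tRNA-Gly piece the 4 high-dose sows lie below the 4 control sows, and for the 5S end 3 of the 4 do.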

How the data were processed

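Small RNA was sequenced from the endometrium of 15 sows in 16 libraries (NEBNext Small RNA kit, per the labels' protocols), and the 2 libraries of sow 7 (ADI) were summed. The deposited files hold a raw count for each distinct read of 17 to 49 nt. The submitters' processing notes name FastQC and, without a role for each, 4 genome builds (GRCm38, Sscrofa10.2, UMD3.1, GRCh37.p5). An aligner is not given in the sources used here. No miRNA table or genome was used, so reads of 18 to 26 nt and of 28 to 36 nt were grouped by their first 18 bases (26704 and 14572 groups with at least 30 reads). Of 250 miRNA names looked for by seed and further bases from background knowledge, 227 matched a group, and these held 62.3% of the grouped reads. A further 3 names whose group was 1 base away from one at least 20 times as abundant were left out.

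Groups were tested with edgeR 4.0.16 (quasi-likelihood, robust, TMM, filterByExpr, Benjamini-Hochberg over all groups, called under 0.05) on all 15 sows, with CPM from the TMM-scaled libraries. Arm ratios and end measures were tested with limma 3.58.1 with 0.5 added to counts. Arms needed a mean of 5 reads. Composition was tested by exact permutation of 4 against 4 sows (35 splits). Duplexes were computed with ViennaRNA 2.7.2, and alternatives included DESeq2 1.42.0. The scripts were tested on simulated data. Planned counts of templated reads only, and of miRNA reads at an annotated start, need hairpins and were not run. The labels name no molecular identifiers. Apart from sow 7 there was 1 library per sow, so p-values measure the spread between sows.

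Named miRNAs are the 10 of smallest p, the 10 most abundant, and of each list the member of smallest p and the most abundant; of families and arms the 5 smallest p, of each end measure 2, of fragments the 5 most abundant and 5 smallest p. One of the abundant fragments and its class are not reported here; p-values of the classes are adjusted over 5, with the unreported p taken as 1. The members and lists were chosen with earlier results of these data known. miR-449a-5p, miR-34c-3p, miR-144, miR-146a-5p, let-7d-3p, the let-7 and miR-26 families, miR-361 and miR-485 were named after their values were seen.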

Additional observations from a re-analysis of the deposited data

Results flagged for a closer look

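In 156 groups of 4 sows checked, 9 had a sow far from the other 3, where the gap to its neighbour passed the 95% limit of Dixon's ratio. Chance alone flags about 1 in 20 such groups. Of these, 6 were high-dose sows. High-dose sow 13 had the lowest pooled share of A after the usual end, 3.106%, beside 4.033% to 4.125%. High-dose sow 12 had the highest miR-449b-5p, 38.11 CPM, beside 23.67 to 23.99 CPM. High-dose sow 14 had the largest 5p share of miR-193a, 96.93%, beside 92.48% to 93.18%. In high-dose sow 15 the share of miR-23a/b-3p with A added was 0.02165%, beside 0.05473% to 0.06044%, and the tRNA-Gly piece stood at 145700 CPM of fragment reads, beside 72620 to 81440 CPM. The 5S rRNA end in high-dose sow 12 stood at 41410 RPM, beside 22740 to 24950.

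The other 3 were control sows. The seed family GAGAACT of miR-146 stood at 2134 CPM in control sow 4, beside 556.8 to 798 CPM. miR-484-5p had a mean length of 22.74 nt in control sow 2, beside 22.62 to 22.64 nt. The tRNA-Gly piece stood at 40760 RPM in control sow 1, beside 26960 to 29070. One further signal was 312 reads like miR-15b-3p with another first base in high-dose sow 15, where control sows had at most 1. They were tested as an unnamed read group and not called over the 15 sows (log2 6.07, edgeR unadjusted p = 0.0919). The class B libraries, with 1 high-dose sow, gave a log2 difference of 7.31. The arm ratio of miR-15b in sow 15 counts only the 51 reads of the 3p arm without the change.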

How the results depend on the processing

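No paired analysis was possible because the sow numbers in the titles are not shared between groups. Of 1011 recomputed values of single miRNAs, families, arms, ends and fragments, 938 kept their direction, 73 reversed and 0 passed the threshold. The cause of the changes was not tested. Calls appeared in few settings: with the 8 sows alone 1 read group was called, in class A libraries 1 read group, 4 fragments, 2 hairpins and 4 end measures, and in class B libraries 16 read groups and 3 hairpins. These class fits hold 1 high-dose sow, assumed to vary like the others. Most of the read groups called in class B libraries were forms of the same few sequences with shifted ends, so they are not separate results. Another was the changed read like miR-15b-3p described above. The hairpins called there included miR-15b, whose arm ratio in sow 15 leaves out the changed reads.
In class A libraries the log2 differences that reversed were miR-143-5p -0.19, miR-206-3p -0.97, miR-1-3p -0.45, miR-9-5p 0.03, miR-143-3p -0.71, miR-126-3p -0.02, miR-27a/b-3p -0.17, miR-148a-3p 0.08, miR-34c-5p 0.16, miR-381-3p -0.30, let-7i 0.31. In class B libraries the log2 differences that reversed were miR-486-5p -0.19, miR-451-5p -0.74, miR-335-3p -0.23, miR-143-5p -0.29, miR-206-3p -0.96, miR-99a-5p -0.25, miR-222-3p -0.17, miR-1-3p -0.94, miR-143-3p -0.26, miR-126-3p -0.26, miR-26a-5p -0.20, miR-200a-3p -0.20, miR-27a/b-3p -0.22, miR-148a-3p 0.01, miR-10a-5p 0.17, let-7i 0.09, the tRNA-Gly piece 0.06, the 30 nt 5S end 0.23, the 28S end -0.02. With length class in the fit the log2 differences that reversed were miR-143-5p -0.20, miR-206-3p -0.69, miR-99a-5p -0.14, miR-1-3p -0.41, miR-143-3p -0.34, miR-126-3p -0.15, miR-27a/b-3p -0.19, let-7i 0.13, the 30 nt 5S end 0.04. With named miRNAs only and start variants merged (added after seeing the data) the log2 differences that reversed were miR-200a-3p -0.02, miR-92a-3p -0.01, miR-27a/b-3p -0.04, miR-381-3p -0.01. With named miRNAs only (also added) the log2 differences that reversed were miR-27a/b-3p -0.01. Scaled by all reads the log2 differences that reversed were miR-148a-3p 0.02, miR-10a-5p 0.08, let-7i 0.09. With DESeq2 the log2 differences that reversed were let-7i 0.01. Without the filter on low counts the log2 differences that reversed were let-7i 0.01. Leaving out 1 sow at a time gave log2 ranges of miR-143-5p -0.09 to 0.75, miR-206-3p -0.29 to 1.19, miR-222-3p -0.05 to 0.39, miR-1-3p -0.40 to 0.84, miR-9-5p -0.39 to 0.02, miR-143-3p -0.35 to 0.44, miR-126-3p -0.06 to 0.36, miR-10b-5p -0.28 to 0.01, miR-26a-5p -0.02 to 0.27, miR-200a-3p -0.09 to 0.27, miR-27a/b-3p -0.07 to 0.21, miR-148a-3p -0.20 to 0.08, miR-34c-5p -0.41 to 0.15, miR-381-3p -0.09 to 0.27, miR-10a-5p -0.11 to 0.06, let-7i -0.22 to 0.17. In percentage points the ranges were reads of 18 to 26 nt -0.694 to 6.37, reads of 20 to 24 nt -0.265 to 5.31, reads of 28 to 36 nt -5.48 to -3.25, reads of 40 to 49 nt -0.779 to 3.29, A added after the usual end -0.0626 to 0.308, T added after the usual end -0.35 to 0.0891, and of the 10 composition measures the share of 28 to 36 nt reads alone reached the smallest p of 0.0286 (-5.48 without sow 12, exact permutation). For the 5′ end of 28S rRNA the range was -564 to 554 RPM. The same p was reached by Y RNA without sow 15 and the 5S end without sow 12. In each of these cases the sow left out was the only high-dose sow that did not lie beyond every control sow. The smallest p then had to follow, so it is no further test. Scaling fragments by all reads moved their median log2 difference from -0.016 to -0.216. Of 272 list medians 256 stayed within the spread.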

Other observations

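Reads like miR-15b-3p that carry the change C1T at the first base (position 1 from the 5′ end of miR-15b-3p) were seen in some sows and not in others. In high-dose sow 15 there were 312 such reads and 51 without the change, so 86.0% carried it. Control sows 1 to 4 had 0, 0, 1 and 1 such reads beside 38 to 60 without it, and high-dose sows 12, 13 and 14 had 0 beside 50, 19 and 29. ADI sows 5 and 7 (158 and 389 reads) and NOEL sow 8 (195 reads) also had them, at 87.8%, 89.8% and 89.4%, and the other sows had 0. The reads are shown here because they differ in that base alone.
miR-15b-3p: cgaatcattatttgctgctct
With the change: tgaatcattatttgctgctct

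A read group of 22 nt that matched no miRNA name had 0 reads in the 4 control sows and 17, 18, 20 and 83 reads in high-dose sows 12 to 15, which is 4.66, 7.45, 6.07 and 7.15 CPM. Taking 3 reads over the control group as the limit a count of 0 allows, it was at least 46.0-fold higher, and at least 37.0-fold without sow 15, which gave 83 of the 138 reads. These limits cover counting error only, with reads taken as independent, and not the spread between sows. It was called by edgeR with the 8 sows alone (adjusted p = 0.000415) and not with all 15 (unadjusted p = 0.0166). NOEL sows 9 and 11 had 75 and 46 reads, NOEL sow 10 had more than either, and ADI sow 5 had 17, while ADI sows 6 and 7 and NOEL sow 8 had 0. This read group was chosen after its values were seen. In the fit of the 8 sows it passed the filter on low counts through the high-dose sows alone. The fold limits and the call come from the same values, so they are no independent test.
Unnamed read: caacgggaactccatatttttt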
